A study of Macaca mulatta with 20 samples.

Results

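Toll-like receptors and the proteins that help them sense lipopolysaccharide (LPS) were followed in whole blood of rhesus macaques (Macaca mulatta) before and after irradiation of the thorax. The set holds 10 genes: the receptors TLR1, TLR2, TLR4, TLR5, TLR6, TLR7 and TLR8, the LPS co-receptors LY96 and CD14, and the adaptor MYD88. Its members were taken by gene name, and a probe was kept when it was well above background on at least 5 of 20 arrays. The array carries 12 probes for these genes, and 11 probes of 9 genes passed, out of 19961 passing probes among 34127. The probe of TLR8 did not pass. The study hybridized globin-depleted RNA to 20 one-color Agilent Whole Human Genome arrays, with 5 arrays for each of 4 sampling times. Animals of all groups belonged to an arm that received no mitigator, and all were male macaques of Chinese origin. The pre-irradiation sample was drawn before exposure and received 0 Gy, and the other samples were drawn 2, 5 and 30 days after a single 10 Gy X-ray dose to the midplane of the thorax. There was no sham-irradiated group followed over the same days, so that time, handling and dose cannot be told apart. Arrays with the same replicate number were treated as a pair, since the study describes matched controls. A single sample was a pool of RNA from different animals, and the labels do not say which.

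Toll-like receptors are membrane proteins that bind conserved microbial molecules through a leucine-rich ectodomain and signal through a cytoplasmic TIR domain. TLR4 senses LPS as a complex with MD-2, the product of LY96, to which CD14 delivers the ligand. TLR2 pairs with TLR1 or TLR6 to bind bacterial lipopeptides, TLR5 binds flagellin, and TLR7 and TLR8 bind single-stranded RNA in endosomes. All of these receptors signal through MYD88, which recruits IRAK kinases. In blood, monocytes and neutrophils are the main carriers of CD14, TLR2 and TLR4, while TLR7 is known from plasmacytoid dendritic cells and B cells.

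The probes are 60 bases long and were designed on human transcripts, so their positions are those of the human build hg19 that the array annotation gives. Macaque sequence at these sites was not compared here. TLR4 and TLR5 each have 2 probes, and these are shown because the probes of TLR5 gave different results. TLR1 and TLR6 are shown because they are close relatives that lie on the same chromosome. The first 30 bases of each probe, 5′ to 3′ and with no base marked, read as follows.
TLR4 probe A_32_P66881, chr9:120479236-120479295, plus strand: ttactgagtgtttcagagtgtgtttggttt
TLR4 probe A_24_P69538, chr9:120476856-120476915, plus strand: atggtaaatcatggaatccagaaggaacag
TLR5 probe A_23_P85903, chr1:223284067-223284126, minus strand: aacagtagaaagatcgtttgtcttgtgagc
TLR5 probe A_33_P3263423, chr1:223305827-223305886, minus strand: ttaaacaaccagggaccctctgcccctaga
TLR1 probe A_23_P10873, chr4:38798013-38798072, minus strand: atattcctcctgttgatattgctgcttttg
TLR6 probe A_23_P256561, chr4:38828533-38828592, minus strand: aagacttaacaaaaacaatgtttcatctgg

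The TLR1 and TLR6 probes share no run longer than 7 bases over their full length. Both TLR4 probes are annotated to 1 transcript and start 2380 bases apart on it. Both TLR5 probes are annotated to 1 transcript and start at its bases 567 and 2888, which lie 21760 bases apart on the genome. The probe with the higher mean signal (the lead probe, A_32_P66881 for TLR4 and A_23_P85903 for TLR5) stands for its gene below, and the other is given beside it. The remaining probes lie on chr8:74941211-74941270 (LY96), chr5:140011318-140011377 (CD14), chr3:38183932-38183991 (MYD88), chr4:154626406-154626465 (TLR2), chrX:12908260-12908319 (TLR7) and chrX:12940262-12940321 (TLR8). Whether a probe lies in coding or untranslated sequence was not looked up here.

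A level is the log2 processed signal of a probe minus the 75th percentile of its array, so that 0 marks that percentile, and levels of different probes were not compared. Each of the 11 passing probes was well above background on all 20 arrays and saturated on 0 of them. The array of day 5 replicate 3 stood apart with 67.3% of its spots well above background, where the other 19 arrays had 50.9% to 58.8%. The arrays lay on 5 slides of 4. Each slide held 1 array of every group, and the position of an array on its slide was the same throughout a group, so that position and group cannot be told apart. Most markers of the cells of whole blood were measured, and among those not passing were MMP8 of neutrophils, MS4A1 and PAX5 of B cells and CLEC4C and IL3RA of plasmacytoid dendritic cells.

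At every time after irradiation most members had higher signals than before it, and no member passed the test over the whole array. Calls needed both p under 0.005 and a false discovery rate (FDR) under 10% in a limma fit blocked on the replicate number. By that rule 0 of the 11 member probes were called at day 2, day 5 or day 30. The whole array gave 12 called probes at day 2 (0.0601% of those tested), 0 at day 5 (0%) and 0 at day 30 (0%). The smallest adjusted p-values among the members were 0.131, 0.279 and 0.126 from limma at the 3 times. The differences below are therefore given with their errors and as counts at unadjusted p-values, beside the same counts over all probes. The study applied the same thresholds in its own paired class comparisons and reported significant genes at each of the 3 times. It reported LY96 and TLR6 as up regulated, and it also measured LY96 by qRT-PCR. For most genes and times it described a close correlation of PCR and array values. The set was chosen with these and other earlier results of the data known. The counts are therefore descriptions and no independent support.

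At day 2, 9 of the 11 member probes were higher with an unadjusted p-value under 0.05, against 8.47% of all probes, and 6 were higher with a p-value under 0.005, against 1.9%. At day 5 the numbers were 7 (7.35% of all probes) and 2 (1.26%). At day 30 they were 8 (7.43% of all probes) and 3 (1.13%), and 1 member probe was lower with a p-value under 0.05, against 10.1% of all probes. Higher signals in every pair were seen for 7 member probes at day 2 (6.17% of all probes), 6 at day 5 (7.24%) and 6 at day 30 (7.41%). The median log2 fold change over the 9 genes was 0.95 at day 2, 0.60 at day 5 and 0.75 at day 30, while that over all tested probes was -0.04, 0.03 and -0.02. The median per pair lay between 0.22 and 1.14 at day 2, between 0.11 and 1.16 at day 5 and between 0.33 and 1.24 at day 30. All 3 times were compared with the same 5 pre-irradiation arrays, whose own deviations enter each comparison. On these arrays replicate 4 was the lowest in 7 of the 9 genes.

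The counts depended on the background correction, the scaling, single pairs and the pairing. With normexp the count at a p-value under 0.05 was 3 at day 2 and the median of the members was 0.42, and with median scaling the count was 2 at day 5. Without replicate 2, limma called 5 member probes at day 2 (588 probes in all). Without replicate 1 the count at a p-value under 0.05 was 3 at day 5, and without replicate 5 it was 4. At day 30 the count in either direction was 9, and it was 5 without replicate 2 and 5 without replicate 4. With no replicate block the count was 5 at day 2 and 2 at day 5. With the slide as a random block beside the replicate number, limma called 8 member probes at day 2, 4 at day 5 and 1 at day 30, among 1541, 1026 and 195 called probes in all. The median of the members was 0.75 at day 5 without replicate 3, whose day 5 array stood apart in its share of spots above background.

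**Figure D1:**
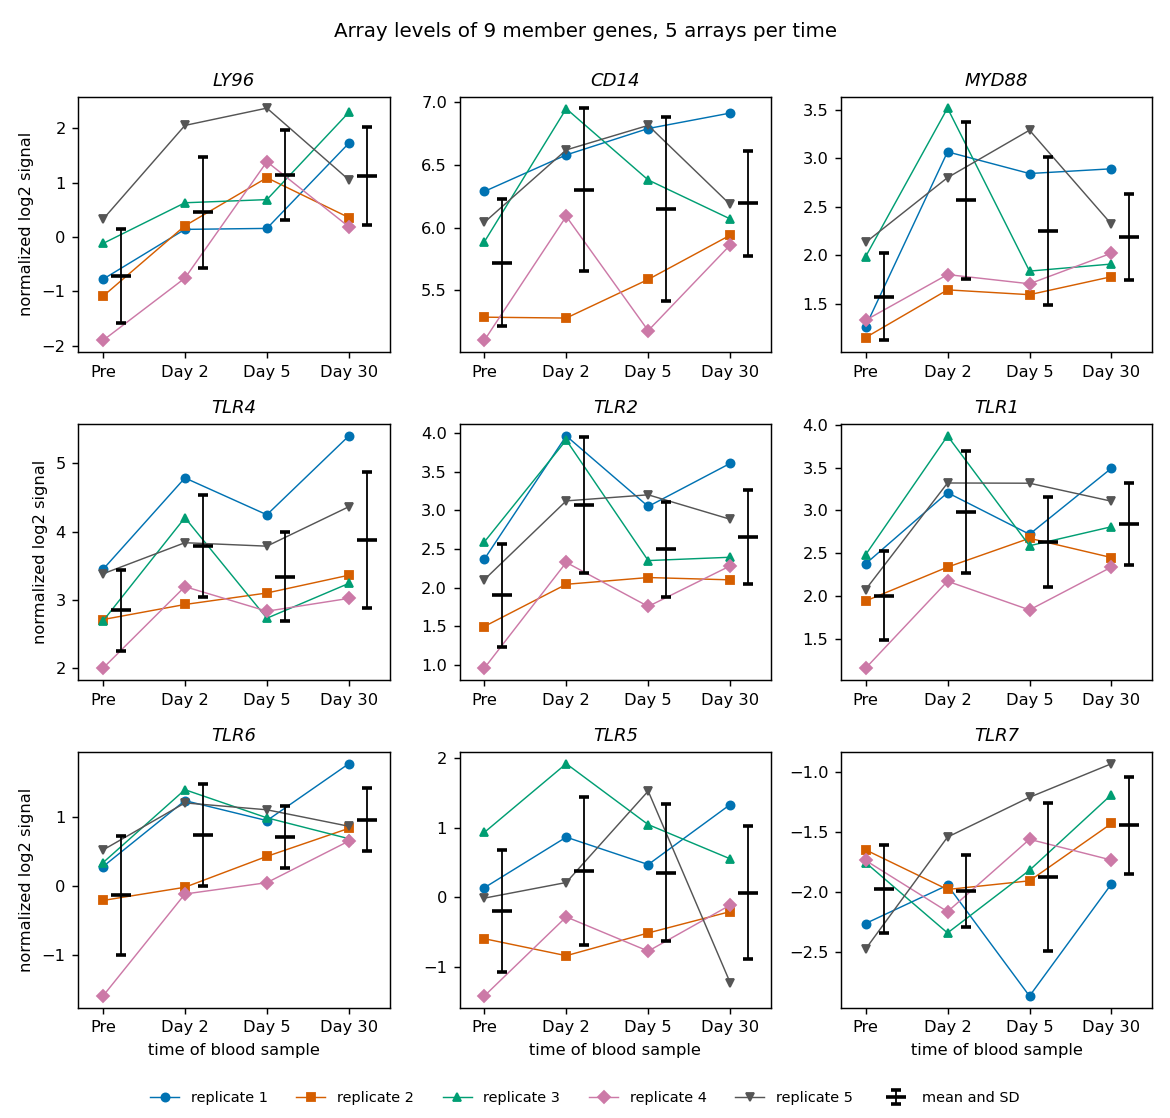
Levels of 9 member genes by array (normalized log2 signal, vertical axis, on a scale of its own in every panel) against the time of the blood sample. Each line joins the arrays of 1 replicate number, and the black bars are the group mean and SD of 5 arrays. TLR6 reaches down to -1.60 before irradiation and to -0.12, 0.05 and 0.65 at days 2, 5 and 30, and replicate 4 is lowest before irradiation in 7 of the 9 panels.

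Within the LPS receptor complex, LY96 showed the largest difference of the set at days 5 and 30. LY96 encodes MD-2, the small secreted protein that holds the lipid A part of LPS against TLR4. Its levels before irradiation were -0.78, -1.09, -0.12, -1.91 and 0.32 in replicates 1 to 5. At day 2 they were 0.14, 0.20, 0.63, -0.76 and 2.05, at day 5 0.16, 1.09, 0.69, 1.38 and 2.37, and at day 30 1.72, 0.36, 2.29, 0.19 and 1.05. Each replicate was higher than its own pre-irradiation value at each of the 3 times, and the groups overlapped, replicate 5 being the highest before irradiation. The log2 fold changes were 1.17 ± 0.18 at day 2, 1.85 ± 0.35 at day 5 and 1.84 ± 0.28 at day 30 (estimate ± standard error from limma, 5 pairs), which are folds of 2.25, 3.61 and 3.57. The unadjusted p-values were 0.000204, 0.000909 and 0.000127 from limma. Over the alternative settings the day 2 value of LY96 ran from 0.79 to 1.27. Within slides, LY96 was higher on 5 of 5 slides at day 2, on 4 at day 5 and on 5 at day 30. Its differences within slides at day 2 ran from 0.02 to 3.14. Slide counts were not made over all probes, so they have no share to be set beside. Other members were higher on fewer slides at day 2, namely CD14, TLR1, TLR2 and TLR6 on 3 and MYD88 and TLR4 (lead probe) on 4. At day 5 TLR2 was higher on 3 slides, and CD14, MYD88, TLR1, TLR4 and TLR6 on 4. At day 30 TLR1 and TLR6 were higher on 5, CD14, MYD88 and TLR2 on 4 and TLR4 on 3. Arrays sharing a slide at day 2 had different replicate numbers.

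CD14, the receptor that hands LPS to TLR4 and MD-2 and a standard surface marker of monocytes, showed smaller differences. Its mean level was 5.72 ± 0.51 (SD, n = 5) before irradiation, 6.30 ± 0.65 at day 2, 6.15 ± 0.74 at day 5 and 6.19 ± 0.42 at day 30. Its log2 fold changes were 0.58 ± 0.20, 0.43 ± 0.15 and 0.47 ± 0.18, and with normexp background correction the value at day 2 was 0.046. In single pairs the difference ran from -0.01 to 1.06 at day 2, from 0.08 to 0.78 at day 5 and from 0.14 to 0.76 at day 30. CD14 was thus higher in 4 of 5 pairs at day 2 and in 5 of 5 at the later times, while the groups overlapped throughout. Its unadjusted p-values were 0.0185, 0.0250 and 0.0272, and none of them reached 0.005.

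TLR4, the signaling receptor of the complex, was higher in every pair at each time by its lead probe. The levels of A_32_P66881 before irradiation were 3.45, 2.71, 2.69, 2.00 and 3.38 in replicates 1 to 5. They were 4.79, 2.93, 4.21, 3.19 and 3.84 at day 2, 4.25, 3.10, 2.73, 2.83 and 3.79 at day 5, and 5.40, 3.36, 3.24, 3.02 and 4.37 at day 30. Replicate 1 was the highest at all 4 times, and the groups overlapped. The log2 fold changes were 0.95 ± 0.23 at day 2, 0.49 ± 0.17 at day 5 and 1.03 ± 0.23 at day 30. The other probe of TLR4, A_24_P69538, gave 0.58 ± 0.16, 0.40 ± 0.22 and 0.79 ± 0.31, in the same direction and smaller at each time. With normexp its value at day 2 was 0.062, and that of the lead probe was 0.42. The probes had a Pearson correlation of 0.852 over the 20 arrays, which is given as a description.

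**Figure D2:**
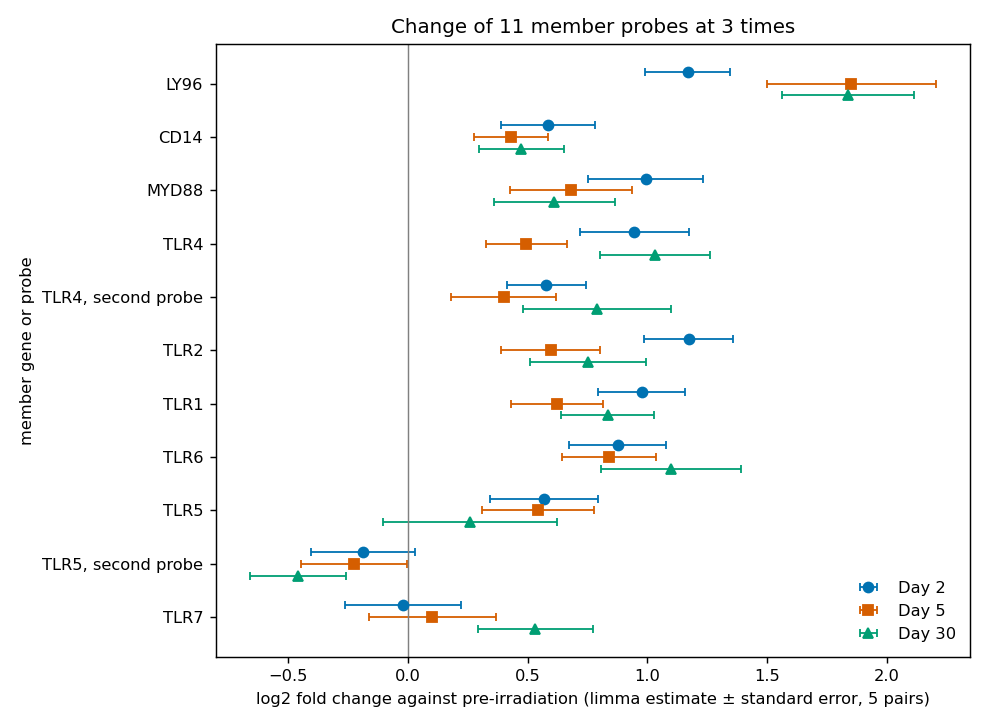
Log2 fold change against pre-irradiation (horizontal axis) of 11 member probes at day 2, day 5 and day 30. Points are limma estimates over 5 pairs and bars are standard errors. LY96 lies farthest to the right at days 5 and 30, at 1.85 and 1.84, while TLR7 at day 2 and the second probe of TLR5 at each time lie at or left of 0.

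TLR2, TLR1 and TLR6, the receptors that pair to bind bacterial lipopeptides, differed most at day 2 for the first and the second of them. TLR2 levels before irradiation ran from 0.95 in replicate 4 to 2.59 in replicate 3 with a median of 2.10, and they were 3.96, 2.04, 3.91, 2.33 and 3.12 in replicates 1 to 5 at day 2. At day 5 they were 3.05, 2.13, 2.35, 1.76 and 3.20, and at day 30 3.61, 2.10, 2.39, 2.28 and 2.89. Every pair was higher at day 2, and replicate 3 was the exception at both later times, with differences of -0.24 and -0.20. The log2 fold changes of TLR2 were 1.17 ± 0.19 at day 2, 0.60 ± 0.21 at day 5 and 0.75 ± 0.24 at day 30. Over the alternative settings the day 2 value ran from 0.60 to 1.33.

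TLR1, which forms a heterodimer with TLR2 for triacylated lipopeptides, was higher in 5 of 5 pairs at each time. Its mean level was 2.00 ± 0.52 (SD, n = 5) before irradiation, 2.98 ± 0.71 at day 2, 2.63 ± 0.53 at day 5 and 2.84 ± 0.48 at day 30. The log2 fold changes were 0.98 ± 0.18, 0.62 ± 0.19 and 0.83 ± 0.20, and the groups overlapped. Under the alternative settings the day 2 value lay between 0.45 and 1.12. The smallest difference in a pair was 0.40 at day 2, 0.11 at day 5 and 0.33 at day 30.

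TLR6, the partner of TLR2 for diacylated lipopeptides, was the member whose groups did not overlap at day 30. Its levels before irradiation were 0.28, -0.21, 0.34, -1.60 and 0.52 in replicates 1 to 5, and at day 30 they were 1.77, 0.84, 0.68, 0.65 and 0.87. The lowest day 30 array was thus above the highest pre-irradiation array. Groups that did not overlap, with the later one higher, were seen for 1 of the 11 member probes at day 30, against 0.852% of all probes, and for 0 at day 2 (0.536% of all probes) and 0 at day 5 (0.326%). At day 2 TLR6 levels were 1.24, -0.02, 1.40, -0.12 and 1.20, and at day 5 0.95, 0.43, 0.99, 0.05 and 1.10. Every pair was higher at each time, and replicate 4, the lowest before irradiation, had the largest difference at all of them, 1.48 at day 2, 1.65 at day 5 and 2.25 at day 30. Without replicate 4 the log2 fold change of TLR6 at day 30 was 0.81, against 1.10 with all pairs. At day 2 it was 0.88 with all pairs, and it ran from 0.42 to 1.05 over the alternative settings.

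MYD88, the adaptor that links these receptors to IRAK4, showed its largest difference at day 2. Its levels before irradiation were 1.26, 1.15, 1.98, 1.33 and 2.13 in replicates 1 to 5, and 3.07, 1.64, 3.52, 1.80 and 2.80 at day 2. They were 2.84, 1.59, 1.84, 1.71 and 3.29 at day 5 and 2.89, 1.78, 1.91, 2.02 and 2.32 at day 30. All pairs were higher at day 2, and replicate 3 was lower at day 5 and day 30, by differences of -0.15 and -0.08. The log2 fold changes were 0.99 ± 0.24, 0.68 ± 0.26 and 0.61 ± 0.25, with unadjusted p-values of 0.00347, 0.0302 and 0.0402 from limma. Over the alternative settings the day 2 value of MYD88 ran from 0.44 to 1.12.

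TLR5, the flagellin receptor, gave opposite signs with its probes. The lead probe A_23_P85903 had levels of 0.14, -0.59, 0.93, -1.42 and -0.01 before irradiation and 0.87, -0.84, 1.92, -0.28 and 0.21 at day 2. It read 0.47, -0.51, 1.05, -0.77 and 1.53 at day 5 and 1.33, -0.20, 0.55, -0.11 and -1.23 at day 30. Its log2 fold changes were 0.57 ± 0.23, 0.54 ± 0.23 and 0.26 ± 0.36. In replicate 5 this probe was higher than before irradiation by 1.54 at day 5, and its difference was -1.22 at day 30. The other probe, A_33_P3263423, had a mean level of -0.38 ± 0.43 (SD, n = 5) before irradiation, -0.57 ± 0.29 at day 2, -0.60 ± 0.29 at day 5 and -0.84 ± 0.22 at day 30. Its log2 fold changes were -0.19 ± 0.22, -0.22 ± 0.22 and -0.46 ± 0.20, and at day 30 it was higher in 1 of 5 pairs, by 0.0053. The Pearson correlation of the TLR5 probes over 20 arrays was 0.327, against 0.852 for those of TLR4. No single direction is therefore given for TLR5.

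**Figure D3:**
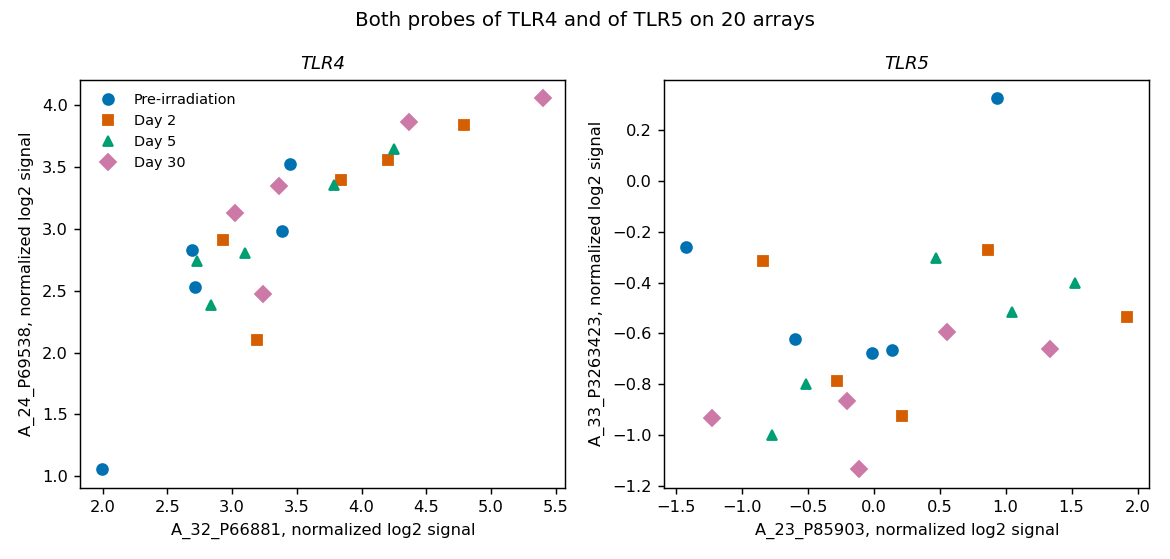
Levels of both probes of TLR4 (left) and of TLR5 (right) on the same 20 arrays (normalized log2 signal on both axes), with the group of each array shown by colour and shape. The TLR4 probes lie along a rising band (Pearson correlation 0.852), while the TLR5 probes are scattered (0.327) and the day 30 arrays of the second TLR5 probe lie between -1.13 and -0.59.

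Of the endosomal RNA receptors, TLR7 was measured and TLR8 was not well above background. TLR7 levels before irradiation were -2.26, -1.65, -1.75, -1.73 and -2.47 in replicates 1 to 5, and -1.94, -1.98, -2.34, -2.16 and -1.54 at day 2. They were -2.87, -1.90, -1.82, -1.56 and -1.21 at day 5 and -1.93, -1.43, -1.19, -1.73 and -0.93 at day 30. The log2 fold changes were -0.02 ± 0.24, 0.10 ± 0.26 and 0.53 ± 0.24. At day 2 and day 5 TLR7 was higher in 2 of 5 pairs each, and at day 30 in all 5, by between 0.0029 and 1.55 (adjusted p = 0.297 from limma). The sign at day 2 depended on the scaling of the arrays, and the value was 0.014 with quantile normalization, 0.00454 with median scaling and 0.29 with normexp background correction. At day 5 the value was -0.018 with median scaling and -0.19 without replicate 5. TLR8 was well above background on 0 of 20 arrays, and it has no level or fold here. Its signal was 3.22 to 5.25 on 19 arrays and 10.9 on the array of day 30 replicate 1, where the lowest signal well above background was 15.6.

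The times after irradiation were also compared with each other. limma called 0 of the 11 member probes from day 2 to day 5, from day 2 to day 30 and from day 5 to day 30, while it called 0%, 0.0501% and 0% of all probes. An unadjusted p-value under 0.05 in either direction was found for 0, 1 and 1 member probes, against 3.56%, 12.8% and 8.48% of all probes. The member from day 2 to day 30 was TLR7, higher in 5 of 5 pairs with a log2 difference of 0.55 ± 0.18 (adjusted p = 0.363 from limma). The member from day 5 to day 30 was TLR4 by its lead probe, higher in 5 of 5 pairs with 0.54 ± 0.20 (adjusted p = 0.564 from limma), and its other probe was higher in 4 of 5 pairs with 0.39 ± 0.20. LY96 had differences of 0.68 ± 0.32 from day 2 to day 5 and -0.02 ± 0.49 from day 5 to day 30. TLR2 had -0.58 ± 0.27 and 0.16 ± 0.20.

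In the order of the group means, pre-irradiation was the lowest for CD14, LY96, MYD88, TLR1, TLR2, TLR4 and TLR6, and day 2 was the lowest for TLR7. Day 2 had the highest mean for CD14, MYD88, TLR1 and TLR2, day 5 for LY96 and day 30 for TLR4, TLR6 and TLR7. For TLR5 the order turned with the probe, since pre-irradiation had the lowest mean by the lead probe and the highest by the other. Apart from the differences named above for TLR7 and TLR4, no member probe had a p-value under 0.05 between times after irradiation, which does not show that the levels were alike.

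The 3 Toll-like receptors outside the set had negative log2 fold changes at each time, with signs that turned under the settings named below. TLR3 binds double-stranded RNA and TLR9 binds unmethylated CpG DNA, both in endosomes, and TLR10 is a relative of TLR1 known from B cells. TLR3 had log2 fold changes of -0.65 ± 0.34, -0.93 ± 0.22 and -0.60 ± 0.23, and it was lower in 5 of 5 pairs at day 5 with a p-value of 0.00294, a level reached in the lower direction by 0.316% of all probes. Its probe was well above background on 18 of 20 arrays. TLR9 had log2 fold changes of -0.43 ± 0.17, -0.55 ± 0.26 and -0.72 ± 0.27. At day 2 each TLR9 array, with levels from -2.90 to -2.71, was below each pre-irradiation array, with levels from -2.65 to -1.72, as was the case for 1.09% of all probes. TLR9 was lower on 5 of 5 slides at each time, a count not made over all probes. Its probe was dim, with a mean signal of 50.1 before irradiation and 37.7 at day 2. TLR10 had log2 fold changes of -0.08 ± 0.21, -0.13 ± 0.21 and -0.19 ± 0.23. With normexp background correction the values of TLR3 were 0.098 at day 2 and 0.029 at day 30 and those of TLR9 were 0.20 and 0.032, and TLR10 turned positive without replicate 2 (0.086 at day 2 and 0.0015 at day 5) or without replicate 4 (0.019 at day 30). limma called none of the 3 genes, and their smallest adjusted p-value was 0.232.

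Other genes of Toll-like receptor signaling were counted from a list of 81 genes that covers the 3 receptors just described, LPS-binding proteins, adaptors, kinases and ubiquitin ligases, trafficking proteins, transcription factors, inhibitors, induced genes and alarmin ligands. A passing probe was found for 66 of them. At day 2, 14 were higher with a p-value under 0.05, against 8.47% of all probes, and 1 was lower, against 6.55%. At day 5, 7 were higher (7.35% of all probes) and 2 lower (3.82%). At day 30, 17 were higher (7.43% of all probes) and 5 lower (10.1%). Of the genes counted as lower, 1 at day 2, 1 at day 5 and 2 at day 30 were TLR3 or TLR9. The median log2 fold changes were 0.18, 0.01 and 0.22, below those of the members at each time. limma called 0 of the 66 genes at each time.

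Of the 66 genes, 3 were higher at day 2 with a limma p-value under 0.005, against 1.9% of all probes. At day 5 there were 0 (1.26%) and at day 30 there were 2 (1.13%). In the lower direction only TLR3 reached that level, at day 5. These counts are small, and nothing is concluded from them about a step of the pathway. IRAK3, an inhibitory member of the IRAK family, was higher at day 2 (1.14 ± 0.27, 4 of 5 pairs) and at day 30 (1.12 ± 0.24, 5 of 5 pairs), with 0.50 ± 0.17 at day 5. IL1B, the cytokine interleukin 1 beta, was higher at day 2 by 0.86 ± 0.16 in 5 of 5 pairs. LGMN, a protease of endosomes, was higher at day 2 by 1.17 ± 0.29 in 5 of 5 pairs, and its value at day 30 was 0.26 ± 0.27. PTGS2, the inducible cyclooxygenase, was higher at day 30 by 1.01 ± 0.25 in 5 of 5 pairs. These are log2 fold changes ± standard errors from limma.

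By group, kinases and ubiquitin ligases had medians of 0.23, 0.03 and 0.29 over 18 genes at the 3 times, and transcription factors had -0.02, -0.07 and 0.01 over 9 genes. The 5 passing alarmin ligands had 0.85, 0.42 and 0.87, with S100A8, S100A9 and VCAN positive and HMGB1 and HSPD1 negative at each time, and S100A8 and VCAN are also on the monocyte list. Medians were 0.51, 0.29 and 0.49 for the 8 passing induced cytokines and enzymes and 0.24, -0.01 and 0.18 for the 10 passing inhibitors. The 5 passing LPS-binding and MD-2 family genes had 0.30, 0.19 and 0.48, the 5 trafficking genes 0.41, 0.20 and -0.05, and the 3 other adaptors 0.19, 0.25 and -0.05. Genes not well above background on enough arrays included LBP, CD36, CTSS, IL6, CXCL8 and IL10.

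Markers of some blood cells differed in the same direction as the members. In whole blood RNA, more cells of a type and more RNA per cell cannot be told apart. All 9 passing monocyte markers had positive log2 fold changes at each time, with medians of 0.63, 0.41 and 0.73 at days 2, 5 and 30. Of them, 5, 4 and 5 had a limma p-value under 0.05, where 8.47%, 7.35% and 7.43% of all probes were higher at that level. Their mean level per array was 1.86 to 3.34 before irradiation, 2.97 to 3.74 at day 2, 2.30 to 3.80 at day 5 and 3.20 to 3.83 at day 30. All 9 passing neutrophil markers were also positive, with medians of 1.01, 0.62 and 0.94. Of them, 6, 5 and 5 had a limma p-value under 0.05, beside the same shares of all probes. Their mean level per array was -0.10 to 2.05 before irradiation, 0.84 to 2.82 at day 2, 0.80 to 2.25 at day 5 and 0.58 to 3.74 at day 30. The members had medians of 0.95, 0.60 and 0.75, between those of both lists. The study also counted blood cells, with no count between irradiation and day 5. It reported a transient fall of lymphocytes and platelets and a later rise of neutrophils. Those counts were not set against the array values here. The part of blood cell composition in the differences of the members was not tested.

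Most markers of lymphocytes had the opposite sign. The median over 12 markers of T and NK cells was -0.64, -0.35 and -0.43 at the 3 times, with 12, 12 and 10 negative. Over 7 B cell markers it was -0.45, -0.49 and -0.54, with 7, 7 and 6 negative. A lower signal at a limma p-value under 0.05 was found for 8, 3 and 4 T and NK and 4, 5 and 4 B cell markers. Of all probes, 6.55%, 3.82% and 10.1% were lower at that level. GZMK and KLRB1 were the T and NK markers positive at day 30, both with a limma p-value under 0.05. Their mean levels were 1.97 and 0.24 before irradiation and 2.90 and 0.86 at day 30. FCRLA was the B cell marker positive at day 30, at 0.57 ± 0.55. Of the plasmacytoid dendritic cell markers 3 passed, and they went different ways. At day 2 LILRA4 had a log2 fold change of 1.27, TCF4 of -0.26 and GZMB, which cytotoxic lymphocytes also express, of -1.27, so no summary is drawn from them. The 6 passing platelet markers had medians of 1.46, 0.46 and -0.27. The 14 interferon-stimulated genes had medians of 1.17, 0.17 and 0.27, with 0 genes at a p-value under 0.05 at each time. Their day 2 medians per pair were 4.46, 2.71, -0.64, -0.75 and 0.30 in replicates 1 to 5, so that the pairs went in different directions. The 5 red cell markers had medians of -0.26, 0.08 and -0.92.

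**Figure D4:**
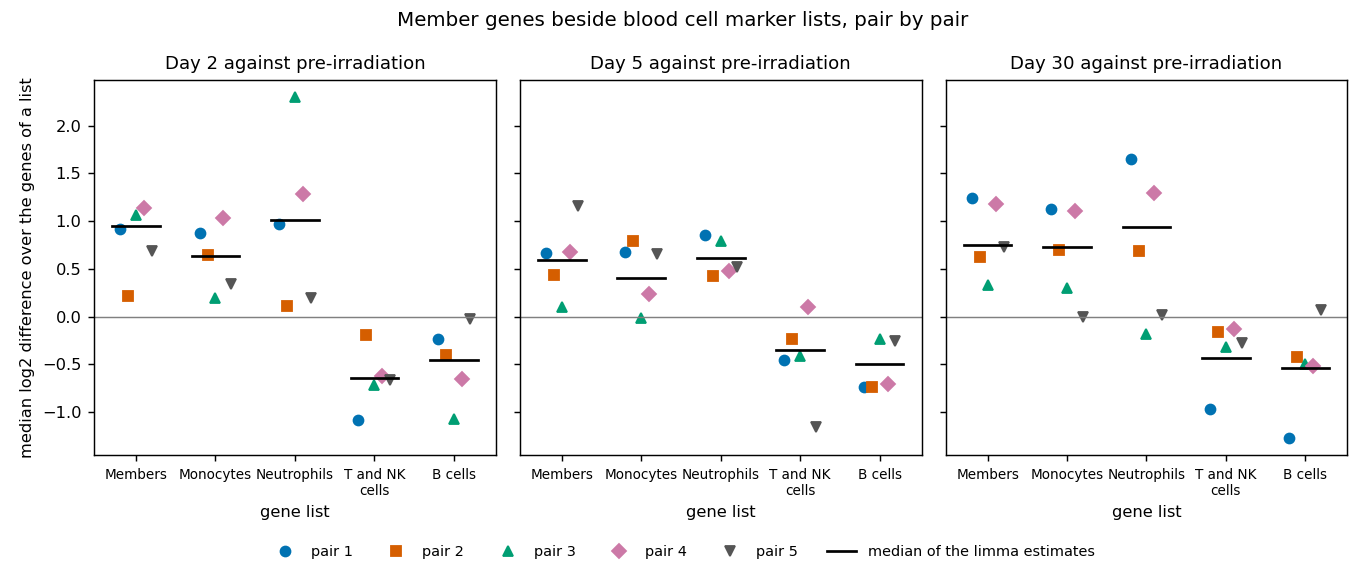
Median log2 difference from pre-irradiation over the 9 member genes and over marker lists of monocytes, neutrophils, T and NK cells and B cells (vertical axis), at day 2, day 5 and day 30. Points are the medians of single pairs and black lines the medians of the limma estimates over 5 pairs. The members lie above 0 in every pair, and their medians of 0.95, 0.60 and 0.75 lie on the side of the monocyte and neutrophil lists, opposite to both lymphocyte lists.

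Across the 20 arrays the Pearson correlations between CD14, MYD88, TLR1, TLR2, TLR4 and TLR6 lay between 0.761 and 0.928. The value was 0.928 between TLR1 and TLR2, 0.899 between TLR1 and TLR6, 0.900 between TLR2 and MYD88 and 0.890 between TLR2 and CD14. TLR4 had its highest value among the members with TLR2, at 0.872. The lead probe of TLR5 had 0.499 with TLR4 and up to 0.805, with CD14. LY96 had values of 0.413 to 0.695 with the other members, and TLR7 had values between -0.21 and 0.41. Arrays of a group or of a replicate number share their condition or source, and these values are descriptions without a test.

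Outside the set, likeness was taken as the Pearson correlation over the 20 arrays with 15905 genes. The genes most like LY96 were IFI27L1 (0.927), BBIP1 (0.914) and EVI2A (0.908). Those most like TLR4 were DRAM1 (0.966), CCNJL (0.951) and SLC35E1 (0.939), and those most like TLR7 were DPM1 (0.857), DCAF13 (0.853) and DCAF13P3 (0.837). The highest correlations within the set were 0.695 for LY96, 0.872 for TLR4 and 0.413 for TLR7. These cannot be ranked against the values above, since a maximum over 15905 genes tends to exceed one over few members.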

How the data were processed

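RNA of 20 whole blood samples was measured on Agilent Whole Human Genome 4x44K v2 arrays. The authors deposited scanner output with a background-subtracted signal intensity per spot, which had not been scaled between arrays. The labels name Feature Extraction 10.7 and the file headers name 12.0.2.2. A second deposited table holds log2 values of 5884 probes. On every array at least 96.9% of them matched log2 of the processed signal after a single shift, to within 0.001.

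Control spots and outlier spots were left out. Log2 processed signals were averaged over the spots of a probe, and the 75th percentile of all non-control spots of the array was subtracted. A probe passed when a share of at least 0.5 of its spots was well above background on at least 5 of 20 arrays, and it was tested where at least 4 of 5 pairs had a value. A first version counted any spot above background and took the percentile over probe means. It was replaced after its member values had been seen, and it is among the alternatives. The members and gene lists were chosen with earlier results of these data known.

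Every comparison used limma 3.58.1 (R 4.3.3) on its 2 groups, blocked on the replicate number, with Benjamini-Hochberg adjustment over all tested probes. Named are all members and their probes, TLR3, TLR9 and TLR10, listed genes with a p-value under 0.005 and, for LY96, TLR4 and TLR7, the 3 genes of highest correlation. The deviations of same-numbered arrays from their group means correlated at 0.0419 to 0.654, with day 30 replicates 4 and 5 under 0.1, and the pairing was taken from the study's description of matched controls. Nothing in the labels ties an array to an animal. The fit was run on simulated data with planted changes, only to check that its mean estimates recovered them. The simulated noise was independent between probes and held no slide effect, so it does not check the calls in these data. The number of arrays limits the precision, and no count depth applies.

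The alternatives were quantile and median scaling, normexp (offset 50), other filters on dim probes, the deposited log2 table, a fit with no replicate block, a fit of all arrays, an intensity trend, probe-wise variances, the slide as a random block and each replicate left out. A fit of all arrays with fixed replicate and slide blocks and the first version were added after seeing the data. Python 3.11.15 with pandas 2.3.3 and matplotlib 3.10.9 served for reading and plotting.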

Additional observations from a re-analysis of the deposited data

Results flagged for a closer look

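Among 48 groups of 5 values, from 12 member probes at 4 times, 2 had an array far from the others, and chance flags about 1 in 20 such groups. The highest TLR6 level at day 30 was 1.77 in replicate 1, while the next was 0.87. The gap took 0.809 of the range of the group, above the critical value of 0.71 for 5 samples. The scaled signal of the TLR8 probe at day 30 was highest at -4.80, also in replicate 1, while the next was -5.94, and the gap took 0.863 of the range. This probe was not well above background on that array or on any other, so these values are background signal and give no level of TLR8. On the day 30 arrays, replicate 1 was the highest in 7 of the 9 genes.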

How the results depend on the processing

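The median over the member genes kept its sign against pre-irradiation under all 18 alternatives, and it moved beyond the spread between pairs once, to 0.42 at day 2 with normexp background correction. Leaving out each replicate gave medians of 0.83 to 1.12 at day 2, 0.47 to 0.75 at day 5 and 0.63 to 0.96 at day 30. Some alternatives called members, where the comparison as reported called 0. At day 2, limma called 3 member probes (190 of 15322 probes in all) among probes well above background on all 20 arrays. It called 6 (327 of 5653) with the deposited log2 values, where fewer probes were tested. With all 20 arrays in 1 fit it called 3 (343 of 19961). It called 8 (1541) with the slide as a random block, 3 (200) with an intensity trend and 1 (153) with replicate and slide as fixed blocks. At day 5 it called 4 (1026 of 19961 probes in all) with the slide as a random block. At day 30 it called 4 (899 of 19961 probes in all) with normexp and 4 (694 of 15322) among probes well above background on all 20 arrays. It called 3 (334 of 5653) with the deposited log2 values and 3 (121 of 19961) with all 20 arrays. With the slide as a random block it called 1 (195), and with an intensity trend 3 (451). Leaving out each replicate gave 0 to 5 called member probes at day 2, the 5 without replicate 2 among 588 called probes in all.

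At p under 0.05 the count at day 2 was 3 with normexp and 5 with no replicate block. At day 5 it was 2 with median scaling, 2 with no replicate block and 3 to 7 with a replicate left out. At day 30 it was 5 with each probe on its own and 5 to 8 with a replicate left out. From day 2 to day 5 the count was 1 with normexp, 2 among probes above background on all 20 arrays, 1 with all 20 arrays, 2 with an intensity trend, 1 with fixed blocks and 0 to 1 with a replicate left out. From day 2 to day 30 it was 0 with normexp and 1 to 2 with a replicate left out. From day 5 to day 30 it was 2 with quantile normalization, 3 with median scaling, 0 with no replicate block and 0 to 2 with a replicate left out.

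Signs turned for TLR7 at day 2 with quantile normalization (0.014), median scaling (0.00454), normexp (0.29) and the deposited values (0.017), and leaving out each replicate gave -0.26 to 0.12 there. They turned for TLR7 at day 5 with median scaling (-0.018), with -0.19 to 0.28 over the replicates left out, and for TLR5 at day 30, with -0.0019 to 0.63. With normexp they turned for TLR3 (0.098 at day 2, 0.029 at day 30) and TLR9 (0.20 and 0.032). Over the replicates left out TLR10 ran from -0.22 to 0.086 at day 2, -0.33 to 0.0015 at day 5 and -0.33 to 0.019 at day 30, and LGMN from -0.050 to 0.44 at day 30. No other named gene turned under these settings, and the cause was not tested.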
